A study of Mus musculus with 32 samples.

Results

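Rn7s1, Rn7sk, Rmrp, Rpph1, Malat1, Neat1 and Miat are 7 noncoding RNAs of the nucleus and of the basic RNA machinery. They were taken by symbol from the 51267 features of a total RNA count table of cultured mouse hippocampal neurons, and all 7 passed the low-count filter that left 17173 features for testing. The neurons came from mice at postnatal day 0 and were treated at day 16 in vitro, with Trizol and chloroform used to extract the RNA. FSK cultures received 50 µM forskolin for 30 minutes, which activates adenylyl cyclase and raises cAMP (6 libraries). DHPG cultures received 30 µM of this agonist of group I metabotropic glutamate receptors for 30 minutes (6 libraries). The controls received DMSO for 30 minutes (4 libraries). The labels name the source as primary hippocampal neurons and give no genotype or strain. Whether replicates came from separate cultures or animals is not stated either, so the p-values measure only the spread between these libraries.

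The 7 RNAs fall into a group of short, very abundant RNAs and a group of long ones. Rn7s1 (7SL) is the RNA scaffold of the signal recognition particle, which brings ribosomes making secreted and membrane proteins to the endoplasmic reticulum. Rn7sk (7SK) holds the elongation kinase P-TEFb inactive together with Hexim proteins and so limits the release of paused RNA polymerase II. Rpph1 is the catalytic RNA of RNase P, which trims the 5′ end of tRNA precursors, and Rmrp is the RNA of the related RNase MRP, which acts on ribosomal RNA precursors. These 4 are made by RNA polymerase III. Malat1, Neat1 and Miat are made by RNA polymerase II and stay in the nucleus: Malat1 lies in nuclear speckles, where splicing factors are stored, Neat1 builds paraspeckles, and Miat binds splicing regulators and is abundant in neurons.

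On GRCm38.p6, the RefSeq build of the annotation used here, the 4 short genes are single transcripts: Rn7s1 on chromosome 12 (69159295 to 69159593, 299 bases), Rn7sk on chromosome 9 (78175302 to 78175633, 332 bases), Rmrp on chromosome 4 (43492785 to 43493059, 275 bases) and Rpph1 on chromosome 14 (50807447 to 50807771, 325 bases). Malat1 (chromosome 19, 5795690 to 5802672, 6983 bases) and Neat1 (chromosome 19, 5824708 to 5845480, 20773 bases) are neighbours 22036 bases apart, and Miat lies on chromosome 5 (112213228 to 112228948). The small RNA Mascrna lies inside Malat1, so their reads cannot be fully told apart. Rps29 starts 109 bases from Rn7s1, Parp2 126 bases from Rpph1 and Ccdc107 281 bases from Rmrp.

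Of the 7 genes, Malat1 and Miat matched an entry in the RefSeq promoter table, which covers 250 bases before to 50 bases after each start. The pair is shown for that reason. Malat1 lay higher in all 6 FSK than in all 6 DHPG libraries, which 3.21% of features did, while the groups of Miat overlapped. Any part of these sequences in the levels of the pair was not tested. Both strands were searched for the cAMP response element TGACGTCA, for its shorter core TGACG, which every TGACGTCA also contains, and for the AP-1 site TGANTCA. Capitals mark the matches to TGACG or, on the opposite strand, CGTCA. Both genes lie on the minus strand, with Malat1 at chr19:5802623-5802922 and Miat at chr5:112228899-112229198.
Malat1: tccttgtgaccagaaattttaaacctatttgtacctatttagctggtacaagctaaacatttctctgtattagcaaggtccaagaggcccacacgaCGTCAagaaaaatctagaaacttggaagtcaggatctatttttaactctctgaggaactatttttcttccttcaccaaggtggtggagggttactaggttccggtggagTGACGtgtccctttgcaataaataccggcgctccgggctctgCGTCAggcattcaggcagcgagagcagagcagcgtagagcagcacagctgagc
Miat: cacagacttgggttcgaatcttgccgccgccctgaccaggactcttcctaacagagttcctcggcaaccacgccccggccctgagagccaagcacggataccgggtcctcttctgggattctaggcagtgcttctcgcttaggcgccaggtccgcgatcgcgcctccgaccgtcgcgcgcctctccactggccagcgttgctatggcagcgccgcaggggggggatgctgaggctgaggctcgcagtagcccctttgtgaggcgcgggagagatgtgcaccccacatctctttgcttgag
The Malat1 window held 3 matches to TGACG, at bases -154 to -150, -45 to -41 and -3 to 2 from the start, and none to TGACGTCA or TGANTCA. The Miat window held none of the 3 motifs. Over 32851 promoters of the same length, 20.8% held TGACG at least once, 5.01% at least 2 times, 1.79% held TGACGTCA and 7.81% held TGANTCA.

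The libraries stood apart in a way that crosses the treatments. A deep set (3 DMSO libraries numbered 2 to 4, the DHPG library 6 and the FSK libraries 4 to 6) ranged from 38409761 to 59958357 counts, and the mitochondrial rRNAs mt-Rnr1 and mt-Rnr2 made up 10.8 to 27.7%. A shallow set of the other 9 libraries ranged from 20676925 to 24892774 counts, 1.47 to 2.92% of them mitochondrial rRNA. Several small RNAs also differed between these sets: Rny1, a Y RNA, was at 319 to 528 CPM (the count scaled to a common library size) in shallow and 24.6 to 89.0 CPM in deep libraries, and the minor spliceosome RNA Rnu12 at 21.9 to 31.9 and 5.77 to 8.46 CPM. Fits with the library set as a term are therefore given beside the members and gene lists whose calls they change. The cell type marker lists are given as sums only. Excitatory neuron markers were present in every library, lowest in FSK 4. Of 10 immediate-early genes 6 rose with forskolin against DMSO, where 0.809% of all features were called. With the library set as a term 9 rose, where 9.45% of all features were called. Fos, an AP-1 subunit, was at 24.7 to 164 CPM in DMSO, 114 to 347 CPM in DHPG and 393 to 796 CPM in FSK.

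The 7 RNAs together took 15.8% ± 2.34 of counts in DMSO (SD, n = 4), 18.5% ± 1.67 in DHPG (n = 6) and 13.8% ± 3.98 in FSK (n = 6). Nearly all of this was 7SL and 7SK. Rn7s1 ranked 1 or 2 of all features in every library and Rn7sk 2 to 4, whereas Rpph1 ranked 5 to 79, Malat1 12 to 109, Rmrp 21 to 373, Miat 3426.5 to 6136 and Neat1 4198.5 to 12066. The widest 95% Wilson interval of any share in a library spanned 0.0325 percentage points, which covers counting error only. FSK 4, FSK 5 and FSK 6 had the lowest summed shares, 11.4%, 10.03% and 9.18%, and also the highest shares of mitochondrial rRNA, 24.2%, 27.7% and 22.2%. The part of mitochondrial rRNA in these shares was not tested.

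**Figure D1:**
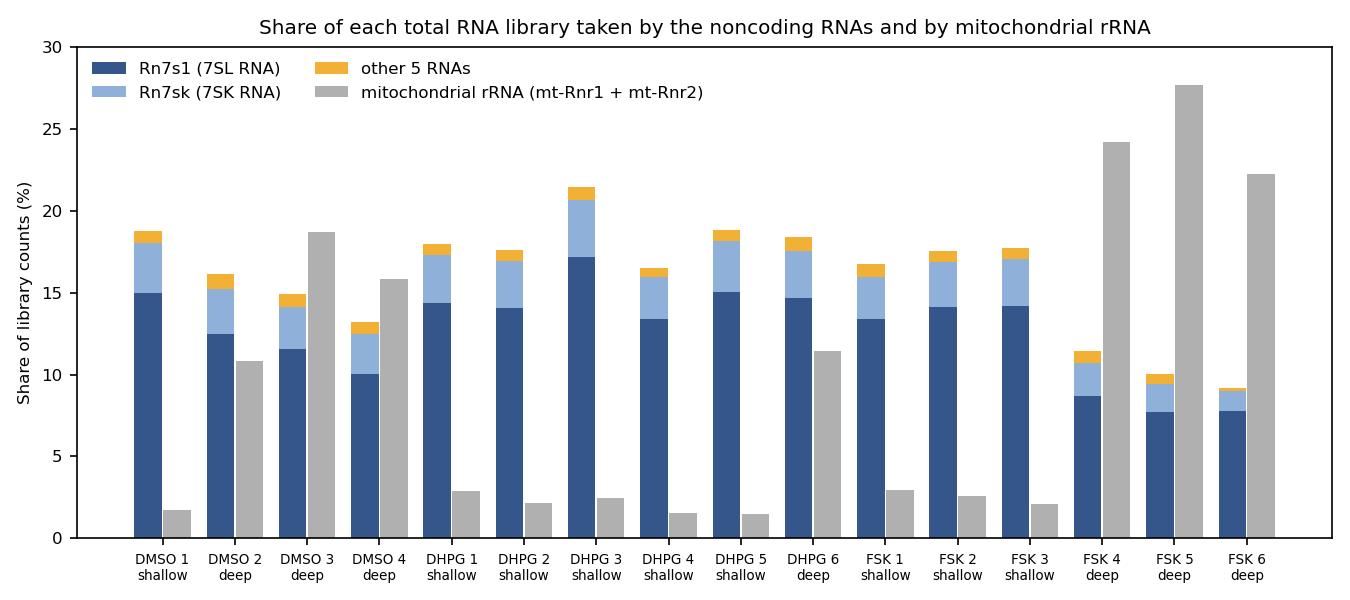
Share of each library's counts (%, y axis) taken by Rn7s1, Rn7sk and the other 5 RNAs (stacked bars) and by mitochondrial rRNA (grey bars), for the 16 total RNA libraries. FSK 4 to 6 have the shortest stacked bars, 9.18 to 11.4%, and the tallest grey bars, 22.2 to 27.7%.

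Compared per length of the gene, the short RNAs were far above the long ones. In DMSO Rn7s1 was at 424178 ± 51734 CPM per kb (SD, n = 4), Rn7sk at 84437 ± 5934, Rpph1 at 18690 ± 2411 and Rmrp at 4439 ± 982. Malat1 was at 133 ± 36.7 CPM per kb and Neat1 at 0.42 ± 0.21, on the length of the gene span. Neat1 has 2 RefSeq transcripts, and its value is too low where reads come from a transcript shorter than the span. No library's value for one of these 6 RNAs overlapped that of the next in this order, in DMSO. Miat is spliced, and its span gives no such level. The order by length was the same in DHPG and FSK.

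Malat1, the speckle RNA, was higher with forskolin than with DHPG in every library. Its levels in DMSO 1 to 4 were 690, 967, 794 and 1275 CPM. In DHPG they ran from 651 over a median of 821 to 1119 CPM, and in FSK from 1193 over 1676 to 2332 CPM. The 6 FSK libraries lay above all 6 DHPG libraries, which 3.21% of features did, and 4 of 6 lay above every DMSO library, with DMSO 4 overlapping FSK 3 and FSK 6. Against DHPG Malat1 rose by 1.04 ± 0.20 on the log2 scale (SE; adjusted p = 0.0164 with the edgeR quasi-likelihood test), a 2.06-fold difference. In this comparison 4 of the 7 RNAs passed, where 30.8% of all features did (16.3% higher and 14.4% lower). Against DMSO the estimate was 0.90 ± 0.23, 931 ± 256 (n = 4) against 1737 ± 511 CPM (SD, n = 6), and did not pass (adjusted p = 0.0745). None of the 7 RNAs passed in that comparison, in which 0.809% of features were called, and at an unadjusted p under 0.05 Rn7sk, Rmrp, Rpph1 and Malat1 would have, as would 21.3% of all features.

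The Malat1 difference from DMSO was 0.94 ± 0.27 within the deep set and 1.15 ± 0.41 within the shallow set, where DMSO has 1 library. The difference between these effects was -0.21 ± 0.47 (adjusted p = 0.958 with edgeR), so no difference between sets was detectable. With the library set as a term Malat1 passed against DMSO (0.99 ± 0.22, adjusted p = 0.0183), where 9.45% of all features were called and 3.45% were called higher. The DESeq2 Wald test also called it (adjusted p = 0.00453; 7.43% of features called). It passed in the authors' deposited table as well, with a log2 fold change of 0.89 and an adjusted p of 0.0108, where 8% of rows passed. In their table of DHPG against DMSO none of the 7 RNAs passed, and 1.48% of rows did. Without FSK 4 and FSK 5 the estimate against DMSO was 0.64 ± 0.21 (adjusted p = 0.153) and that against DHPG 0.78 ± 0.19 (adjusted p = 0.0899). Within the shallow set the 3 FSK libraries (1247 to 1892 CPM) lay above all 5 DHPG libraries (651 to 1119 CPM), as 9.68% of features did. Against DHPG, Malat1 passed in all 16 fits that left out 1 library.

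**Figure D2:**
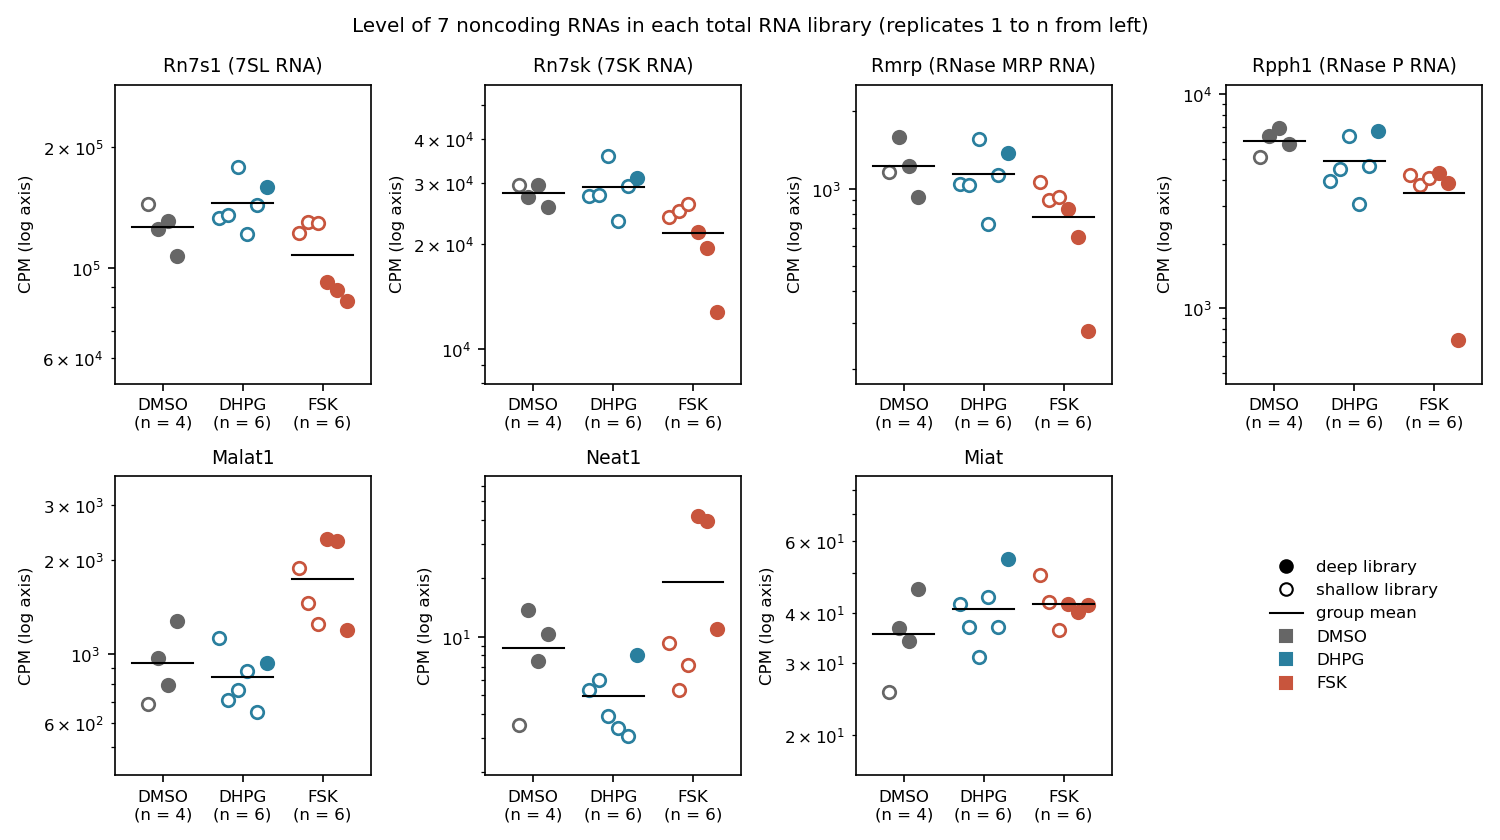
CPM (log axis, a range of its own in each panel) of the 7 RNAs in every total RNA library, by treatment (DMSO n = 4, DHPG n = 6, FSK n = 6), with filled points for deep and open points for shallow libraries and a line at the group mean. All 6 FSK libraries of Malat1 lie above 1119 CPM, the highest DHPG library, Neat1 is high in FSK 4 and FSK 5, and Rpph1 is lowest in FSK 6 at 714 CPM.

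Set against Miat within each library, Malat1 also separated FSK from DMSO and DHPG. The ratio of Malat1 to Miat counts was 23.4 to 27.9 in DMSO (mean 26.2 ± 2.004, SD, n = 4), 17.3 to 26.6 in DHPG (20.9 ± 3.83, n = 6) and 28.7 to 57.2 in FSK (41.4 ± 11.99, n = 6). The FSK values overlapped neither other group, while DMSO and DHPG overlapped. How many other features separate FSK in their ratio to Miat was not counted. FSK 6 had the lowest ratio of the FSK libraries, 28.7, close to DMSO 4 at 27.9. The ratio needs no library scaling, and it shows unequal levels of the pair, not which of them moved.

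Miat passed in none of the 3 comparisons. It was at 25.4, 36.6, 34.0 and 45.6 CPM in DMSO 1 to 4, at 31.1 to 54.2 CPM in DHPG (median 39.5) and at 36.3 to 49.5 CPM in FSK (median 41.8). All 3 groups overlapped. The log2 difference was 0.24 ± 0.16 for FSK against DMSO (adjusted p = 0.390), 0.20 ± 0.16 for DHPG against DMSO (adjusted p = 0.515) and 0.04 ± 0.14 for FSK against DHPG (adjusted p = 0.840), all with edgeR. The FSK effect of Miat was smaller in the deep than in the shallow set by 0.66 ± 0.26, which did not pass (adjusted p = 0.636 with edgeR), where the lone shallow DMSO library is the lowest of all 16.

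Neat1, the paraspeckle scaffold, was high in FSK 4 and FSK 5. Its levels were 3.49, 13.7, 7.51 and 10.3 CPM in DMSO 1 to 4 and 3.09 to 8.004 CPM in DHPG (median 4.59). In FSK 1 to 6 they were 9.24, 5.30, 7.15, 42.2, 39.4 and 10.99 CPM, so that FSK 4 and FSK 5 stood above every other library and the other 4 lay within the DMSO range. Against DHPG Neat1 rose by 1.95 ± 0.52 (adjusted p = 0.0186 with edgeR), with 4 of 6 FSK libraries above all DHPG libraries. Without FSK 4 and FSK 5 this was 0.72 ± 0.34 (adjusted p = 0.182), and without FSK 5 alone 1.604 with an adjusted p of 0.0509. Against DMSO the estimate was 1.12 ± 0.57 (adjusted p = 0.270). It became -0.11 ± 0.38 without FSK 4 and FSK 5 (adjusted p = 0.896), and 1.35 ± 0.36 with the library set as a term (adjusted p = 0.0356).

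FSK 4 and FSK 5, where Neat1 was high, also held the most RNA of microglia markers. The summed level of 14 microglia markers, all 14 of them measured and none at 0 over the libraries, was 23.5 to 41.4 CPM in DMSO, 28.4 to 56.7 CPM in DHPG and 26.3 to 401 CPM in FSK. FSK 4 had 232 CPM and FSK 5 401 CPM, while FSK 6 had 26.3 CPM, the lowest of the FSK group. Among the other treatments the order differed: DMSO 1 had the highest microglia sum of its group (41.4 CPM) and the lowest Neat1, and DHPG 6 the lowest sum (28.4 CPM) and the highest Neat1. Within each treatment, endothelial markers were lowest in DMSO 1 (13.8 CPM), DHPG 4 (6.80 CPM) and FSK 1 (10.8 CPM). They were highest in DMSO 2 (48.2 CPM), DHPG 6 (15.8 CPM) and FSK 4 (115 CPM). Fibroblast, mural and meningeal markers were lowest in DMSO 1 (147 CPM), DHPG 4 (143 CPM) and FSK 2 (150 CPM). They peaked at 452 CPM in DMSO 2, 262 CPM in DHPG 6 and 455 CPM in FSK 4. Neat1 was also highest in DMSO 2, DHPG 6 and FSK 4, and lowest in DMSO 1, DHPG 5 and FSK 2. Oligodendrocyte lineage markers reached 1446 CPM in FSK 5 against 541 to 819 CPM in DMSO, and excitatory neuron markers were lowest in FSK 4, 1188 CPM against 1676 to 2178 CPM in DMSO. Their part in the Neat1 and Malat1 values was not tested. In such bulk RNA, more cells of a type and more RNA per cell cannot be told apart.

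**Figure D3:**
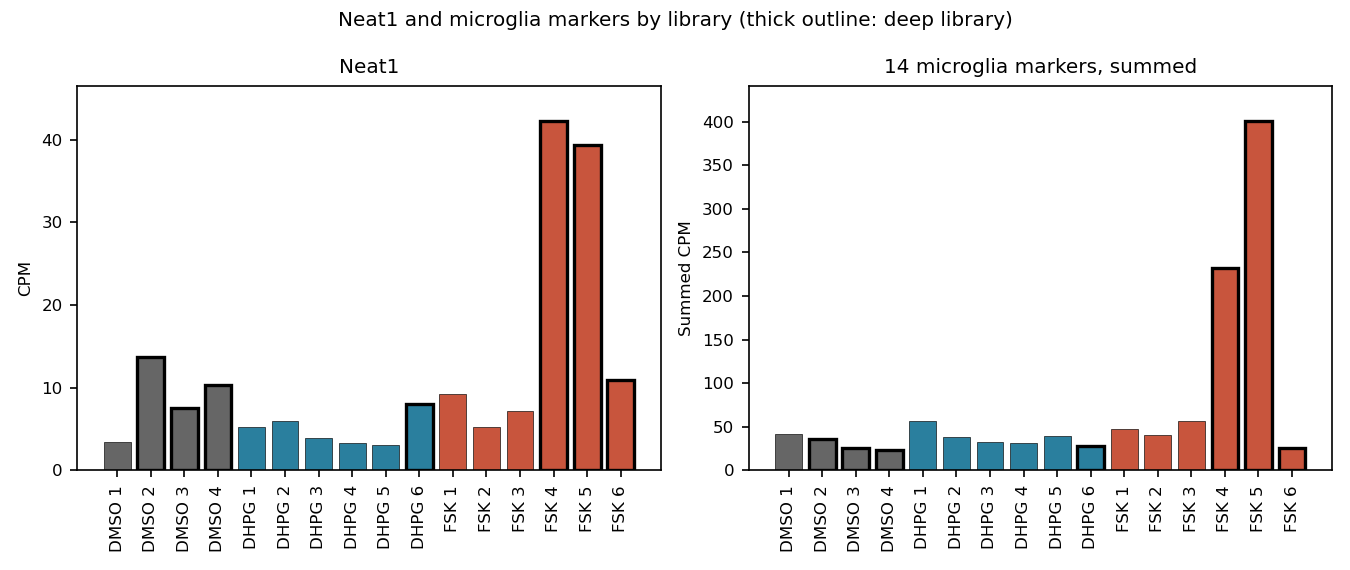
Neat1 (CPM, left) and the summed level of 14 microglia markers (CPM, right) in each total RNA library, with bar colour for treatment and a thick outline for deep libraries. FSK 4 and FSK 5 are the highest in both panels, at 42.2 and 39.4 CPM for Neat1 and 232 and 401 CPM for the markers.

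The catalytic RNAs Rpph1 and Rmrp were lower with forskolin without passing the test. Rpph1 was at 5109, 6395, 6944 and 5849 CPM in DMSO 1 to 4. In FSK 1 to 6 it was at 4190, 3757, 4057, 4302, 3844 and 714 CPM, and in DHPG at 3067 to 6718 CPM (median 4565). All 6 FSK libraries lay below all 4 DMSO libraries, which 4.36% of features did, while DHPG overlapped both. The log2 difference from DMSO in FSK was -0.80 ± 0.35 (adjusted p = 0.195 with edgeR). FSK 6 set much of this spread: without it the estimate was -0.59 ± 0.19 (adjusted p = 0.0974). Limma-voom with quality weights called Rpph1 (-0.81, adjusted p = 0.0150), where it also called 35.2% of all features.

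Rmrp was also lowest in FSK 6. It was at 1154, 1581, 1218 and 930 CPM in DMSO, at 730 to 1556 CPM in DHPG (median 1082) and at 1063, 900, 924, 830, 652 and 281 CPM in FSK 1 to 6. Of the FSK libraries 5 of 6 lay below every DMSO library. The difference from DMSO was -0.66 ± 0.28 (adjusted p = 0.195) and that from DHPG -0.56 ± 0.26 (adjusted p = 0.101 with edgeR). The ratio of Rpph1 to Rmrp counts was 5.12 ± 1.06 in DMSO (SD, n = 4), 4.24 ± 0.37 in DHPG (n = 6) and 4.36 ± 1.15 in FSK (n = 6), with the lowest value, 2.54, in FSK 6.

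Rn7s1 and Rn7sk fell with forskolin against DHPG in the fit over all libraries. Rn7s1 was at 144212, 124985, 131133 and 106987 CPM in DMSO 1 to 4, at 121359 to 178826 CPM in DHPG (median 139603) and at 122479, 130339, 129297, 92698, 88111 and 82743 CPM in FSK 1 to 6. FSK 4 to 6 lay below every other library, and FSK 1 to 3 lay inside the range of both other groups. The log2 difference was -0.43 ± 0.15 for FSK against DHPG (adjusted p = 0.0420) and -0.24 ± 0.17 against DMSO (adjusted p = 0.440 with edgeR). For Rn7sk, DMSO libraries held 29669, 27389, 29544 and 25529 CPM, DHPG libraries 23382 to 35894 CPM (median 28610), and FSK 1 to 6 23954, 24996, 26034, 21685, 19583 and 12774 CPM. Rn7sk was lower by -0.44 ± 0.16 against DHPG (adjusted p = 0.0446) and by -0.38 ± 0.17 against DMSO (adjusted p = 0.217 with edgeR).

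Both calls depended on the library set. With the set as a term, Rn7s1 was at -0.37 ± 0.14 against DHPG (adjusted p = 0.0607) and Rn7sk at -0.38 ± 0.15 (adjusted p = 0.0714), where 23.3% of features were called. Within the shallow set the differences were -0.16 ± 0.14 and -0.20 ± 0.14, and within the deep set, where DHPG has 1 library, -0.89 ± 0.30 and -0.81 ± 0.34. None of these passed, and 0.0506% and 0% of features were called in those fits. The Rn7s1 call was also lost in 9 of 16 fits that left out a single library: DHPG 2, 3, 5 or 6, FSK 4, 5 or 6, and DMSO 2 or 3 (adjusted p up to 0.101). The Rn7sk call was lost without any one of DMSO 2 to 4, DHPG 1 to 3, DHPG 5, DHPG 6 and FSK 4 to 6 (adjusted p up to 0.106).

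Within the deep libraries all 4 polymerase III RNAs separated forskolin from DMSO. Rn7s1 was at 82743 to 92698 CPM in FSK 4 to 6 against 106987 to 131133 CPM in DMSO 2 to 4, and Rn7sk at 12774 to 21685 against 25529 to 29544 CPM. Rmrp was at 281 to 830 against 930 to 1581 CPM, and Rpph1 at 714 to 4302 against 5849 to 6944 CPM. Of all features, 15.6% lay as fully below in these 6 libraries. In fits of the deep libraries alone the differences were -0.48 ± 0.23, -0.63 ± 0.25, -1.10 ± 0.40 and -1.14 ± 0.58, with adjusted p of 0.196 to 0.307, and 0.761% of features were called. In the shallow libraries they were -0.17 ± 0.22, -0.24 ± 0.21, -0.26 ± 0.30 and -0.35 ± 0.29 against the 1 DMSO library, and 0.0619% of features were called. The difference between sets passed for none of the 7 RNAs in any of the 3 comparisons, where edgeR called 3, 0 and 86 features (FSK against DMSO, DHPG against DMSO, FSK against DHPG) and 1259, 473 and 2682 had an unadjusted p under 0.05.

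The ratio of Rn7s1 to Rn7sk counts varied less than either level. It was 4.51 ± 0.28 in DMSO (SD, n = 4), 4.99 ± 0.15 in DHPG (n = 6) and 5.09 ± 0.77 in FSK (n = 6). FSK 6 stood highest at 6.48 and the other 5 FSK libraries were at 4.27 to 5.21, across the range of both other groups. In FSK 6, 7SK was thus lower relative to 7SL than in the other libraries.

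DHPG differed from DMSO in none of the 7 RNAs beyond the spread of the libraries. In this comparison 0.00582% of features, 1 of 17173, were called and 2129 had an unadjusted p under 0.05. Log2 differences were 0.20 ± 0.17 for Rn7s1, 0.06 ± 0.18 for Rn7sk, -0.10 ± 0.29 for Rmrp, -0.32 ± 0.35 for Rpph1 and -0.14 ± 0.22 for Malat1. Neat1 had the largest estimate, -0.83 ± 0.55 (adjusted p = 0.462 with edgeR), and its sign turned with the library set as a term (0.26 ± 0.41). DMSO has 1 shallow library and DHPG 1 deep library, so that within either set this comparison rests on a single library of a treatment. The comparison of DHPG with DMSO and that of FSK with DMSO share their 4 DMSO libraries.

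**Figure D4:**
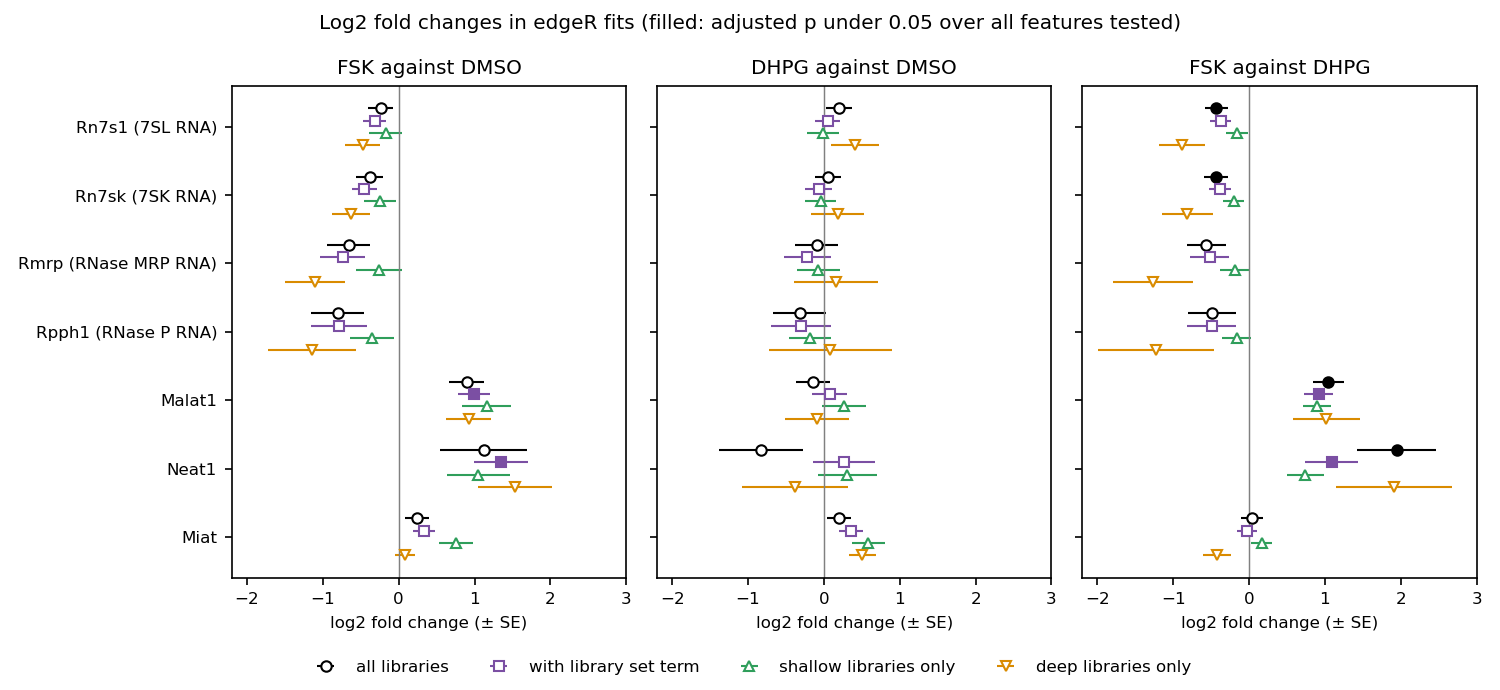
Log2 fold changes (x axis, ± SE) of the 7 RNAs in 3 comparisons, from edgeR fits over all libraries, with a library set term, and within the shallow or deep libraries alone, with filled symbols for an adjusted p under 0.05. Malat1 lies at 0.90 to 1.16 in the 4 fits of FSK against DMSO and of FSK against DHPG, and the 4 polymerase III RNAs lie below 0 in every fit of FSK.

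Genes whose proteins work with these RNAs were examined by list. Of 17 nuclear speckle genes, the partners of Malat1, 2 rose with forskolin against DMSO and none fell, where 0.809% of all features were called. With the library set as a term 5 rose and 2 fell, where 9.45% of all features were called. Clk1, a kinase that phosphorylates SR splicing factors, was at 17.0 to 25.2 CPM in DMSO, 16.1 to 28.7 CPM in DHPG and 33.7 to 47.6 CPM in FSK. All 6 FSK libraries lay above all others, which 3.62% of features did against DMSO, and the log2 difference was 1.07 ± 0.17 (adjusted p = 0.0101 with edgeR). Clk4, a kinase of the same family, rose by 0.58 ± 0.13 (adjusted p = 0.0451), a call kept in 13 of 32 alternatives, whereas Clk1 kept it in 28. The median of the list was 0.15 against 0.02 over all features. Against DHPG 6 speckle genes rose and 3 fell, where 16.3% of all features were called higher and 14.4% lower. With the library set as a term 6 rose and 2 fell, where 23.3% of all features were called. In the fit over all libraries Clk1 (0.96 ± 0.15), Clk4 (0.54 ± 0.11) and Pnn, which encodes a splicing-associated protein (0.77 ± 0.16), were higher than in DHPG. Rnps1, a splicing activator of the exon junction complex, was lower (-0.39 ± 0.08).

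Among 10 genes of the 7SK particle and P-TEFb, Hnrnpa2b1 rose against DMSO and none fell, where 0.809% of all features were called. With the library set as a term 2 rose, where 9.45% of all features were called. The protein of Hnrnpa2b1, hnRNP A2/B1, binds 7SK RNA that is free of P-TEFb and also many other RNAs. Hnrnpa2b1 was at 38.7, 40.0, 32.6 and 42.0 CPM in DMSO, 33.7 to 58.0 CPM in DHPG and 63.2 to 112 CPM in FSK. All FSK libraries lay above all DMSO libraries, which 3.62% of features did, and above all DHPG libraries, which 3.21% did. The log2 difference was 1.15 ± 0.17 against DMSO (adjusted p = 0.00721) and 0.93 ± 0.15 against DHPG (adjusted p = 0.0164 with edgeR). Against DHPG 4 genes rose and 1 fell, where 16.3% of all features were called higher and 14.4% lower. The cyclin T genes Ccnt2 (0.44 ± 0.10) and Ccnt1 (0.33 ± 0.11) were higher, and Hexim2, which encodes an inhibitor of P-TEFb, was lower (-0.60 ± 0.16). The list medians were 0.01 against DMSO and 0.22 against DHPG, where all features had 0.02 and 0.03. With the library set as a term the median against DHPG was 0.12, and 3 genes rose and 1 fell, where 23.3% of all features were called.

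In the lists of partners of the other RNAs no gene was called against DMSO in the fit over all libraries. With the library set as a term, where 9.45% of all features were called, 2 RNase P and MRP genes, 2 paraspeckle genes and 3 genes for Miat binding proteins fell against DMSO, and 1 polymerase III gene rose. The following calls are of FSK against DHPG, in which 30.8% of all features were called. Of 10 signal recognition particle genes, Srp54a rose (0.48 ± 0.16) and Srprb, a receptor subunit, fell (-0.26 ± 0.08), and reads of Srp54a can be shared with its near copies. Of 12 RNase P and MRP protein genes, Rpp21 (-0.54 ± 0.15) and Pop7 (-0.55 ± 0.17) fell, and the list median in FSK against DHPG was -0.20, or -0.082 with the library set as a term. Of 31 genes of RNA polymerase III and its factors, 3 rose and 5 fell. The TFIIIB subunit Bdp1 (0.80 ± 0.21) and the polymerase subunit Polr3f (0.54 ± 0.11) were higher, and Brf2 (-0.40 ± 0.10) and Snapc4 (-0.31 ± 0.10), factors of promoters of the 7SK type, were lower. Of 17 paraspeckle genes, 4 rose and 2 fell, with Hnrnph3 (0.67 ± 0.20) and Matr3 (0.58 ± 0.18) higher and Dazap1 (-0.43 ± 0.14) and Smarca4 (-0.30 ± 0.10) lower. The Smarca4 call held in 15 of 32 alternatives. Of 7 genes for proteins that bind Miat, Qk (0.96 ± 0.20) and Srsf1 (0.49 ± 0.13) rose and Celf3 (-0.44 ± 0.12) fell. With the library set as a term, 23.3% of all features were called against DHPG. In that fit 2 signal recognition particle genes rose and 1 fell. Of the polymerase III genes 4 rose and 3 fell, and of the paraspeckle genes 4 rose and 1 fell. Under DHPG against DMSO no member of any of these lists passed.

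**Figure D5:**
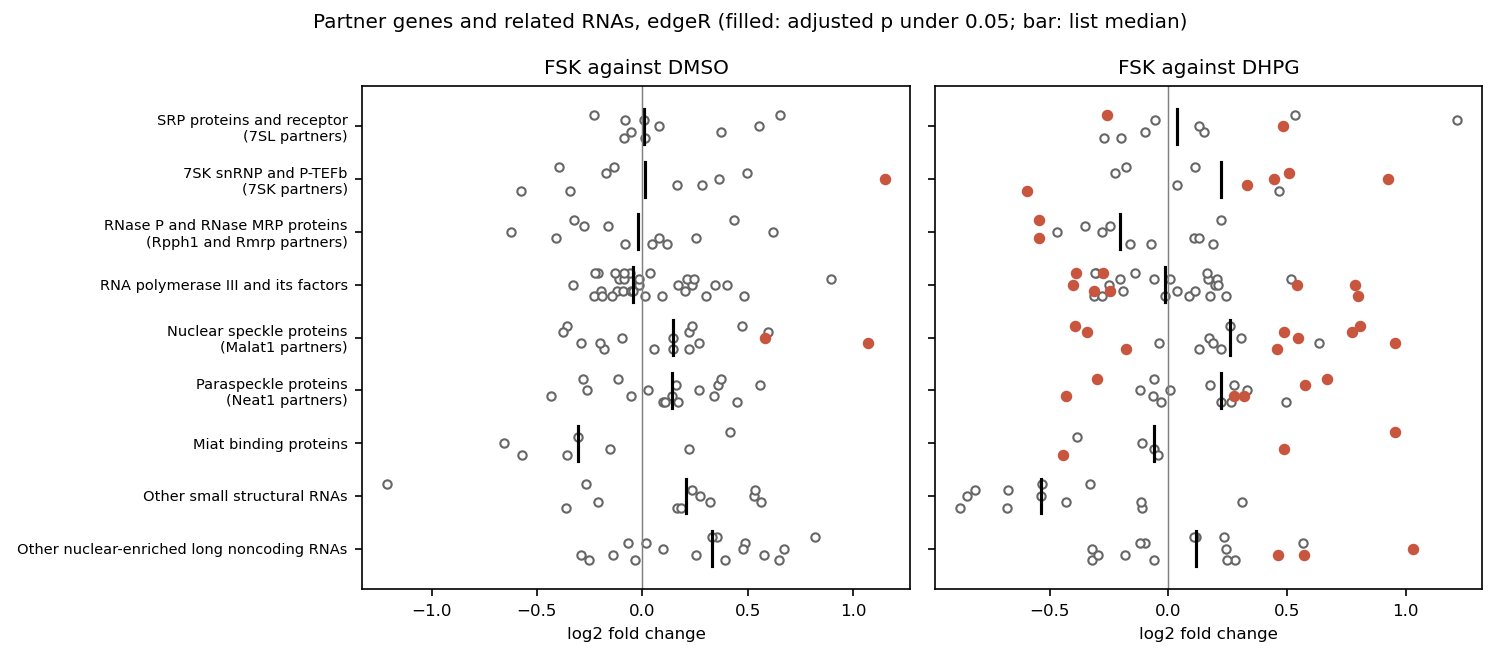
Log2 fold changes (x axis) of single genes in 9 lists of partner genes and related RNAs for FSK against DMSO (left) and FSK against DHPG (right), with filled points for an adjusted p under 0.05 in edgeR and a bar at the list median. Against DMSO the filled points are Hnrnpa2b1 at 1.15, Clk1 at 1.07 and Clk4 at 0.58.

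Other RNAs of the same kinds were compared next. Of 23 further small structural RNAs 17 were in the table and 12 were tested, and none passed in any comparison in the fit over all libraries. With the library set as a term 1 fell against DHPG, where 23.3% of all features were called. Rprl3, an RNase P RNA-like gene whose reads may be hard to separate from Rpph1, had the smallest p against DMSO (-1.21 ± 0.43, adjusted p = 0.134). It was at 73.5 to 124 CPM in DMSO and 4.72 to 55.7 CPM in FSK, lowest in FSK 6 as Rpph1 was. Vaultrc5, a vault RNA, was next at 0.32 ± 0.23 (adjusted p = 0.449). Of 17 other nuclear long noncoding RNAs none passed against DMSO, and 3 rose against DHPG, where 16.3% of all features were called higher. The 3 were Dleu2 (1.03 ± 0.20), Tug1 (0.46 ± 0.13) and Kcnq1ot1 (0.57 ± 0.21), whose call held in 14 of 32 alternatives. The median of the 17 against DMSO was 0.33. With the library set as a term 5 of the 17 passed higher against DMSO and none lower, where 3.45% of all features were called higher.

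The nearest protein-coding genes of 3 short RNAs differed in sign. Parp2, beside Rpph1, was at 0.25 ± 0.11 in FSK against DMSO (adjusted p = 0.213), and Rps29, beside Rn7s1, at 0.21 ± 0.26 (adjusted p = 0.691). Ccdc107, beside Rmrp, was at -0.34 ± 0.17 against DMSO (adjusted p = 0.250) and fell by 0.60 ± 0.15 on the log2 scale against DHPG (adjusted p = 0.0172 with edgeR). In a list of 4 neighbouring genes, which holds Parp2 and Ccdc107 but not Rps29, 1 fell against DMSO with the library set as a term. In that fit 9.45% of all features were called.

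The features whose log2 CPM followed each RNA most closely over the 16 libraries were taken from 10102 features with an average log2 CPM of at least 3. These are descriptions, since libraries share their set, and carry no test. For Malat1 they were Sirt1 (Pearson r = 0.963), Ahctf1 (0.960) and Mterf3 (0.959), with r of 0.960, 0.970 and 0.975 in the 9 shallow and 0.960, 0.958 and 0.945 in the 7 deep libraries. Neat1 was closest to Cyp1b1 (0.974), Btbd7 (0.974) and Cd109 (0.973), and Miat to Meg3 (0.881), another nuclear long noncoding RNA, Ubp1 (0.835) and Wsb1 (0.806). For Rpph1 they were Rprl3 (0.990), Pcnx3 (0.956) and Tcf3 (0.954), and for Rmrp Gm42418 (0.957), Ptov1 (0.956) and Cep131 (0.953). Rn7sk was closest to Ints1 (0.978), a subunit of the Integrator complex, Chpf (0.973) and Egln2 (0.971), and Rn7s1 to Adprh (0.974), Nisch (0.967) and Fzr1 (0.965). Within a library set the lowest r were those of Wsb1 with Miat (0.500, deep), Tcf3 with Rpph1 (0.670, shallow) and Gm42418 with Rmrp (0.733, shallow). The next lowest was Ubp1 with Miat (0.850, deep).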

How the data were processed

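Total RNA libraries were made with TruSeq Stranded Total RNA, per the labels' protocols, and quantified with Salmon against GRCm38, per the submitters' processing notes. The deposited estimated counts (26.6% of values not whole) were rounded to whole numbers. Columns deposited as controls were taken as DMSO libraries of equal number. The authors' deposited tables give a log2 fold change with its standard error (held as a score), p-values from DESeq and a mean normalised signal, and are quoted only by name. The 16 miRNA libraries were not used here. Counts were scaled with TMM factors, filtered with filterByExpr (minimum count 10) and tested in 1 fit of the 3 groups with the quasi-likelihood F test of edgeR 4.0.16 (R 4.3.3), with Benjamini-Hochberg adjustment over 17173 features and a limit of 0.05. CPM is a share: it falls when another RNA takes more of a library. Alternatives included DESeq2 1.42.0 and limma 3.58.1. On simulated data the scripts recovered all changed genes planted. These were large changes in well-counted features, with the same fixed spread for every feature and no difference between library sets. The simulation therefore checked the scripts and cannot show how often changes of the sizes seen here would be found. Samples of the same replicate number mostly did not deviate together, and the main fit did not pair them. Many such pairs cross the library sets, so this cannot show that they were unpaired. No pair of libraries within a treatment agreed within sampling noise (lowest chi-square per degree of freedom 5.85).

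The members and lists were chosen with earlier results of these data known. The text names the 7 RNAs, list genes that pass in a comparison (up to 4 of smallest p, or 2 where a list has none in any), 3 features of highest correlation per RNA, nearby genes, mt-Rnr1, mt-Rnr2 and Fos. Rny1 and Rnu12 were named after their values were seen. Marker and immediate-early lists are given as sums and counts. Rn7s2, the near copy of Rn7s1, was not analysed here.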

Additional observations from a re-analysis of the deposited data

Results flagged for a closer look

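One library stood apart in a level of one RNA. Rpph1, the RNA of RNase P, was at 714 CPM in FSK 6, and the nearest of the other 5 FSK libraries, FSK 2, was at 3757 CPM, a gap that takes up 0.848 of the group's range. Of 21 sets of values (7 RNAs in 3 groups) this was the only one in which a single library was so far out, and chance marks about 1 in 20 such sets. In the same library Rmrp (281 CPM), Rn7sk (12774 CPM) and Rn7s1 (82743 CPM) were also the lowest of all 16 libraries, while Malat1 (1193 CPM) was the lowest of the FSK group. Its microglia markers summed to 26.3 CPM, and its mitochondrial rRNA took 22.2% of counts.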

How the results depend on the processing

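Each fold change was refitted in 32 alternatives. Against DHPG, Malat1 kept its direction in all 32 (0.78 to 1.14) and its call in 29, and Neat1 kept its call in 25, Rn7s1 in 13 and Rn7sk in 10. Against DMSO, Malat1 passed in 4 of 32 (0.64 to 1.16, adjusted p 0.00183 to 0.284). Estimates that changed sign, with the cause not tested, were these. For Neat1 in FSK against DMSO they were -0.077 with limma-voom and -0.11 without FSK 4 and FSK 5. For DHPG against DMSO they were -0.013 for Rn7s1 (shallow set), -0.069 (set term), -0.040 (shallow set), -0.098 (set term without FSK 4 and FSK 5) and -0.0077 (set term without FSK 6) for Rn7sk, and 0.045 (replicate block) and 0.16 (deep set) for Rmrp. They were 0.087 for Rpph1 (deep set), 0.075 (set term), 0.26 (shallow set) and 0.15 (set term without FSK 6) for Malat1, and 0.26, 0.31 and 0.36 for Neat1 in those 3 fits. For Miat in FSK against DHPG they were -0.029 (set term), -0.42 (deep set) and -0.0063 (set term without FSK 6). In FSK against DMSO, Rps29 went to -0.027 (set term), -0.068 (deep set) and -0.17 (set term without FSK 4 and FSK 5). Vaultrc5 went to -0.033 in the last of these fits, also in FSK against DMSO. Leaving out 1 library gave -0.012 to 0.11 for Rn7sk, -0.21 to 0.064 for Rmrp and -0.26 to 0.045 for Malat1 in DHPG against DMSO, and -0.027 to 0.14 for Miat in FSK against DHPG.

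Over all features, 139 were called in FSK against DMSO (60 higher, 79 lower), with 62 (49 higher, 13 lower) on library totals, 1276 with DESeq2, 6051 with limma-voom, 66 without a filter, 1622 with the set term, 11 in the shallow set, 83 on these groups alone, 38 without FSK 4 and FSK 5, 56 and 3967 with the set term and without FSK 4 and FSK 5 or FSK 6, and 12 to 427 leaving out 1 library. In DHPG against DMSO 1 was called, with 7 by DESeq2, 5960 by limma-voom, 0 with the set term, in either set, on these groups alone and without FSK 4 and FSK 5 (also with the set term), 4 with the set term without FSK 6, and 0 to 5 leaving out 1 library. In FSK against DHPG 5283 were called (2803 higher, 2480 lower), with 2510 (1760 higher, 750 lower) on library totals, 2905 without a filter, 9 in the shallow and 0 in the deep set, 3 without FSK 4 and FSK 5, 1551 with the set term as well, and 1804 to 5798 leaving out 1 library. Of these, the counts of 0 had 387 to 4587 features at an unadjusted p under 0.05.

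The replicate numbers gave little sign of pairing: 3 of 14 pairs of the same number had a correlation over 0.1 (-0.405 to 0.394). Only 1 of the 16 libraries correlated best with one of its own number. Many of these pairs join a deep and a shallow library, such as DMSO 2 with FSK 2 (-0.405). A low correlation in such a pair cannot show that the samples were unpaired. With the replicate block 531 features were called in FSK against DMSO, 0 in DHPG against DMSO, and Neat1 (1.59, adjusted p = 0.0611) and Rn7sk (-0.46, adjusted p = 0.0524) did not pass against DHPG. Where a set held a single library of a treatment, it was assumed to vary like the other groups. The set term without FSK 4 and FSK 5 or FSK 6, and the scaling without the 7 RNAs, were chosen after the data were seen. The planned sum of Rn7s1 and Rn7s2 was not run.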
